A study of Mus musculus with 2 samples.

Results

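The 33 genes described here encode nuclear receptors, and they were taken by name from the 21938 protein-coding genes outside the mitochondrial chromosome in the GENCODE M21 basic annotation. All 33 names matched 1 gene each. They were measured in kidney tissue of 25-day-old male mice of the hybrid strain B6CASTF1/J, a cross of C57BL/6J with CAST/EiJ. The tissue was untreated as far as the labels say, and the study holds 1 group of 2 libraries, named replicate 1 and replicate 2 by the biological replicate numbers in the labels. DNase-seq finds accessible chromatin by sequencing the ends that DNase I cuts in nuclei. A peak is an accessible site, its height is the signal deposited by the authors, and a footprint is a short stretch within such a site that is cut less than its surroundings. The labels name no comparison group, so the values below are descriptions without a test, and the 33 genes are set beside all protein-coding genes.

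Nuclear receptors are transcription factors, most of which share a DNA-binding domain of zinc fingers and a ligand-binding domain. Receptors of steroid, thyroid and retinoid hormones act when their small lipophilic ligand is bound, receptors of oxysterols and xenobiotics sense metabolites, and orphan receptors have no settled natural ligand. Most bind DNA as dimers on copies of the core motif AGGTCA, whose spacing and orientation differ between receptors, and many non-steroid receptors pair with a retinoid X receptor. In the kidney they are known for regulating salt, mineral and energy handling, and retinoic acid signalling shapes the developing nephron.

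Replicate 1 had 125393 peaks over 22.1 Mb and 237471 footprints, and replicate 2 had 177001 peaks over 31.1 Mb and 493495 footprints. The absolute depth is unknown. Low heights rise in steps that were 1.72 times as large in replicate 1 as in replicate 2, which makes replicate 2 the deeper library if heights were divided by depth. Among kidney cell markers 6 of 8 had a promoter peak in both libraries, and the other two, Aqp2 and Nphs1, had one in replicate 2 only. None of 7 markers of adrenal cortex and gonad, none of 4 hepatocyte markers and none of 4 markers of neuron and retina had a promoter peak in both libraries. Of these, Ttr and Neurod1 had one in replicate 2 only, with heights of 0.283 and 0.343. Of 5 leukocyte markers, Lyz2 alone had one in both libraries, with heights of 0.461 and 0.248. In whole tissue, a site open in few cells and a site weakly open in many cannot be told apart.

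A few stretches of DNA show where footprints met known motifs at these genes, read from GRCm38.p6, the assembly that mm10 is based on. The rule was the highest shared peak of each member away from every transcription start site (TSS) of the basic annotation. It applied where that peak had the core motif inside a footprint of both libraries. It gave 3 genes, of which Rara and Nr2e3 are printed. The sequence of the third, Nr3c1, is not shown here. Each sequence reads 5′ to 3′ along its gene's strand, and capitals mark the motif, which reads TGACCT where it lies on the other strand.
Rara, intron peak, chr11:98945681-98945860, plus strand: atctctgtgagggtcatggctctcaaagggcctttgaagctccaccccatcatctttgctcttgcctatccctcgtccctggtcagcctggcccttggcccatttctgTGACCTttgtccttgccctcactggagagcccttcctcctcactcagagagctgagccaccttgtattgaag
Nr2e3, part of the peak upstream of its start site, chr9:59959466-59959620, minus strand: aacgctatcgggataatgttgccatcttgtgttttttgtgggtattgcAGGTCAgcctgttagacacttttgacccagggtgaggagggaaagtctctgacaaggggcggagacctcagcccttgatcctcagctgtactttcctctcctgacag

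A second set was chosen after the values were seen, because its motifs lay in footprints of both libraries at or near a start site. Nr2f6 carries AAAGGTCA, the monomer site of NR4A receptors. Nr1h2 carries the ETS factor motif CCGGAAGT, and of its 5 matches in the printed stretch only the 3 in footprints of both libraries are in capitals, with 2 of them overlapping. Nr4a2 and Nr6a1 carry TGACGTCA, the cyclic AMP response element. Rarb carries a direct repeat with 5 bases between its copies, the type of element through which retinoic acid is known to induce this gene.
Nr2f6, peak before the start site, chr8:71382641-71382840, minus strand: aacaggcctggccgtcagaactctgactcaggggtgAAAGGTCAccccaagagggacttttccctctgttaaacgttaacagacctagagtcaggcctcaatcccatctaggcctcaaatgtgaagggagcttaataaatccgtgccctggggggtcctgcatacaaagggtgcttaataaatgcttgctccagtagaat
Nr1h2, part of the promoter peak, chr7:44553952-44554060, minus strand: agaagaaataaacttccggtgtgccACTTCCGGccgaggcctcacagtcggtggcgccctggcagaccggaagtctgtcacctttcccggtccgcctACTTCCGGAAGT
Nr4a2, part of the peak at the start site of Nr4a2-201, chr2:57115039-57115120, minus strand: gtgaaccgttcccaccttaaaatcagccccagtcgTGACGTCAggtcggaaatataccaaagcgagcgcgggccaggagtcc
Nr6a1, part of a promoter peak, chr2:38926408-38926437, minus strand: gcagcggcgcgTGACGTCAgaggagggagc
Rarb, site after the start site of Rarb-201, chr14:16575507-16575535, minus strand: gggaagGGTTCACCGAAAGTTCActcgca

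Most of the nuclear receptor genes had an open promoter in kidney. A promoter peak, one that overlaps the 500 bp on either side of any annotated TSS, was present in both libraries at 28 of 33 members (84.8%), where 65.3% of all protein-coding genes had one. In replicate 1 alone the count was 28 members, beside 66.2% of all genes, and in replicate 2 it was 30, beside 68.0%. Nr1i3 and Nr5a1 had a promoter peak in replicate 2 only, and 3.62% of all genes had one in 1 library only. Nr0b1, Nr2e1 and Nr2e3 had none in either library, like 31.1% of all genes. The members also had richer CpG content, taken for each gene as the highest value over its TSSs, whose number was not compared. The median of observed over expected CpG was 0.724 against 0.606 for all genes. Open promoters followed that content closely over all genes, with 6.38% open in the lowest of 10 classes of equal size and 97.7% in the highest. In the highest class all 6 members were open. In the 2 lowest classes that held members Nr1i2 and Nr0b2 were open while Nr1i3 and Nr2e3 were not. Nr0b1, Nr2e1 and Nr5a1 were not open in both libraries either, in classes where 81.3%, 94.6% and 97.3% of all genes were. Whether the members' share goes beyond their CpG content was not tested.

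**Figure D1:**
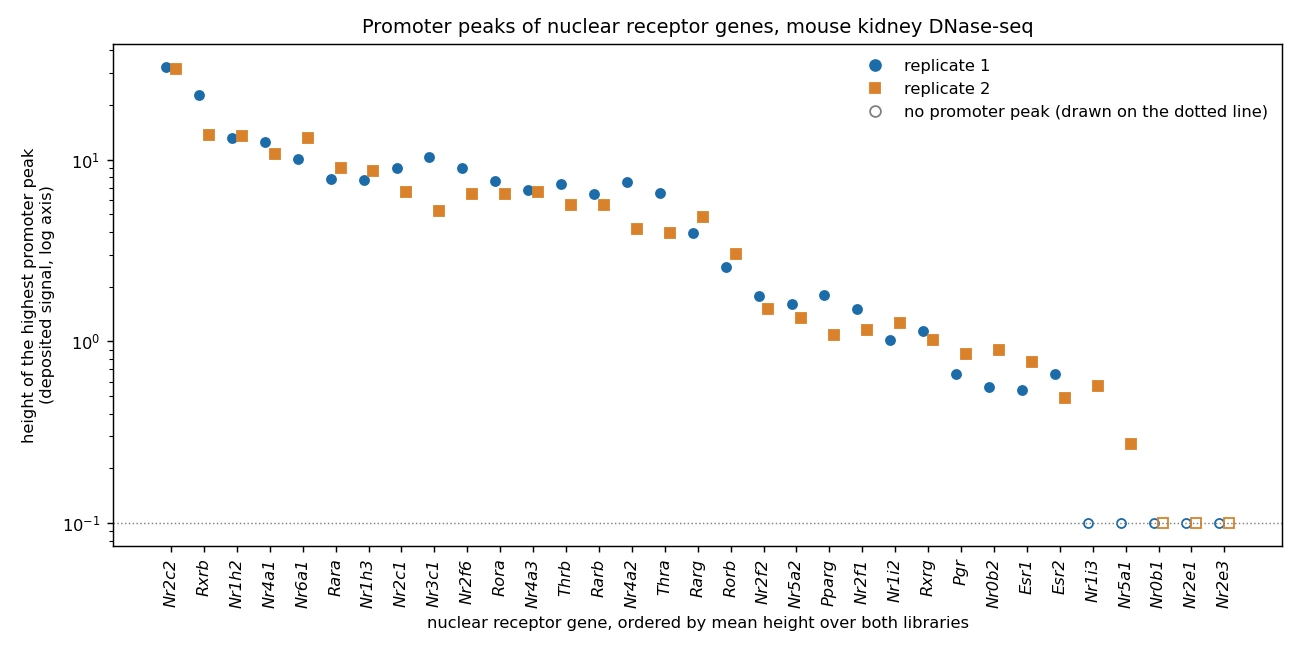
Height of the highest promoter peak (deposited signal, log axis) of each of the 33 nuclear receptor genes, ordered by the mean of both libraries; circles are replicate 1, squares replicate 2, and open symbols on the dotted line mark no peak. Nr2c2 stands highest at 32.5 and 31.7, and Esr2 has the lowest mean of the genes open in both libraries, at 0.658 and 0.487.

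Promoter heights of the open members covered a wide range and were similar in both libraries. They ran from 0.538 to 32.5 in replicate 1, with a median of 6.72 against 7.49 for all genes with a promoter peak in both libraries. In replicate 2 they ran from 0.487 to 31.7, with a median of 5.02 against 7.01. A height of at least 5 in both libraries was reached by 14 of 33 members, beside 37.9% of all genes. The log2 ratio of replicate 2 to replicate 1 had a median of -0.20 over the 28 members and ranged from -0.98 for Nr3c1 to 0.66 for Nr0b2, so that all 28 were within 2-fold. At Nr2f2, Nr6a1 and Esr2 the highest peaks of the libraries did not overlap, so the ratio compares different sites there. Footprints lay in a promoter peak of both libraries at 28 members, beside 62.8% of all genes.

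Among the retinoid receptors the promoters of Rxrb and the RAR genes were open in both libraries. Rxrb, a common dimer partner on chromosome 17 (34031812 to 34038399, plus strand), had promoter heights of 22.8 and 13.7, with 5 and 7 footprints in the peak. That peak lies within 500 bp of the start sites of Slc39a7 and Gm20427 too, so it cannot be assigned to Rxrb alone. Rxrg, the family member known best from muscle and brain, was far lower at 1.15 and 1.02. The retinoic acid receptors Rara, Rarb and Rarg had heights of 7.84 and 9.06, 6.48 and 5.66, and 3.94 and 4.81 in replicates 1 and 2. Within the promoter window Rarg was thus the lowest of the 3 in both libraries. A taller Rarg peak, of 14.99 and 17.02, lay 501 bp from a start site, just outside that window. The Rarb peak cannot be assigned to Rarb alone either, because a start site of Gm48162 lies within 500 bp of both Rarb start sites. That peak spans the start of Rarb-201, and the direct repeat printed above lies 14 to 30 bases after it. A footprint covered 11 of its 17 bases in each library.

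Both thyroid hormone receptor genes were open at the start sites of their widely used isoforms. Thra (chromosome 11, 98740638 to 98769006, plus strand) had promoter heights of 6.58 and 3.95, and Thrb (chromosome 14, 17660261 to 18038090, plus strand) had 7.31 and 5.62. Thrb ranked above Thra in both libraries, by less than the difference between replicates of either gene. The start site of Thrb-202, 320.6 kb further into the gene, had no peak in either library. It encodes 475 amino acids, against 461 for Thrb-201, and is the form known from pituitary and retina.

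The glucocorticoid receptor gene Nr3c1 had the highest promoter of the 4 steroid receptor genes among the members. Its heights were 10.3 and 5.23, with 12 and 23 footprints in its promoter peaks. The sex steroid receptors were low, with 0.538 and 0.765 for the oestrogen receptor gene Esr1, 0.658 and 0.487 for Esr2, and 0.658 and 0.854 for the progesterone receptor gene Pgr. Together with Nr0b2 they were the 4 lowest of the 28 members open in both libraries, in each library. Esr1 and Pgr were higher in replicate 2 and Esr2 was higher in replicate 1, so their order was not the same in the libraries.

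Receptors of sterols and lipids fell into a high and a low group. The liver X receptor genes were high, with 13.2 and 13.6 for Nr1h2 (chromosome 7, 44549616 to 44553951, minus strand) and 7.75 and 8.69 for Nr1h3. Nr1h2 encodes the widely expressed form. Pparg, the master regulator of fat cells, had 1.80 and 1.08 at the start site of Pparg-202. The start of Pparg-201, 61.1 kb into the gene, had no peak in either library. Pparg-201 encodes the longer form of 505 amino acids known from fat tissue, against 475 for Pparg-202. The xenobiotic sensors were low, with 1.02 and 1.26 for Nr1i2 (the pregnane X receptor), and for Nr1i3 (the constitutive androstane receptor) no peak in replicate 1 and 0.566 in replicate 2.

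Rora and Rorb, orphan receptors of the ROR group that bind the core motif as monomers, differed in which start site had the highest peak. Rora had 7.64 and 6.46 at the start of Rora-202, which is 635.9 kb downstream of the first, and 1.38 and 1.07 at the first, that of Rora-201. These encode 467 and 523 amino acids, the forms called RORα4 and RORα1. Rorb, known from brain and retina, had 2.56 and 3.04 at its first start site, that of Rorb-203, and no peak at the start of Rorb-201 and Rorb-202, 110.1 kb further in.

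Of the orphan NR2 receptors, Nr2c2 had the highest promoter of all members. Nr2c2 and Nr2c1 encode the testicular receptors, which are known as repressors at direct repeats. Nr2c2 (chromosome 6, 92091390 to 92174294, plus strand) had 32.5 and 31.7, which placed it at percentile 99.6 of the protein-coding genes with a promoter peak in both libraries. This peak lies at the inner of its start sites, and the first start site, 1043 bp upstream, had 7.50 and 5.94. Nr2c1 had 8.99 and 6.65. The COUP receptor genes, which guide organ formation, split: Nr2f6 had 9.03 and 6.51, whereas Nr2f2 had 1.79 and 1.52 and Nr2f1 had 1.51 and 1.15. Nr2e1 and Nr2e3, which act in neural stem cells and in photoreceptors, had no promoter peak in either library.

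The NR4A genes, which are induced within minutes of many stimuli, were all open. Nr4a1 (chromosome 15, 101254269 to 101274795, plus strand) had 12.5 and 10.8, at the start of Nr4a1-201, which lies 12.6 kb downstream of the first start site. That first site had 4.15 and 2.63. Nr4a2 had 7.50 and 4.17 at its first start site and 3.38 and 3.10 at that of Nr4a2-201, 9.0 kb downstream. The cyclic AMP response element printed for Nr4a2 lies 40 to 47 bp before the start of Nr4a2-201. Nr4a3 had 6.85 and 6.63 at its only start site.

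The NR0, NR5 and NR6 genes ranged from a high promoter to none. Nr6a1, the germ cell nuclear factor (chromosome 2, 38723370 to 38927688, minus strand), had 10.03 and 13.1. Its neighbour Nr5a1, which encodes steroidogenic factor 1 of adrenal and gonad and lies 8827 bp away, had no promoter peak in replicate 1 and one of 0.273 in replicate 2. The Nr5a1 start site at which that peak was counted has a start site of Nr5a1os within 500 bp. Nr5a2, known from liver and pancreas, had 1.62 and 1.35, both at a start site 10.9 kb downstream of the first, where neither library had a peak. Nr0b1, a corepressor of steroidogenic cells on X, had no promoter peak, and males carry 1 copy of it. Nr0b2, the small heterodimer partner that represses bile acid synthesis in liver, had 0.564 and 0.894. On the stricter of the deposited peak lists Nr0b2 had no promoter peak in replicate 1, and 27 members had one in both libraries, beside 62.0% of all genes. One of them, Esr1, had it in replicate 1 only at its later start site, with a height of 0.513.

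**Figure D2:**
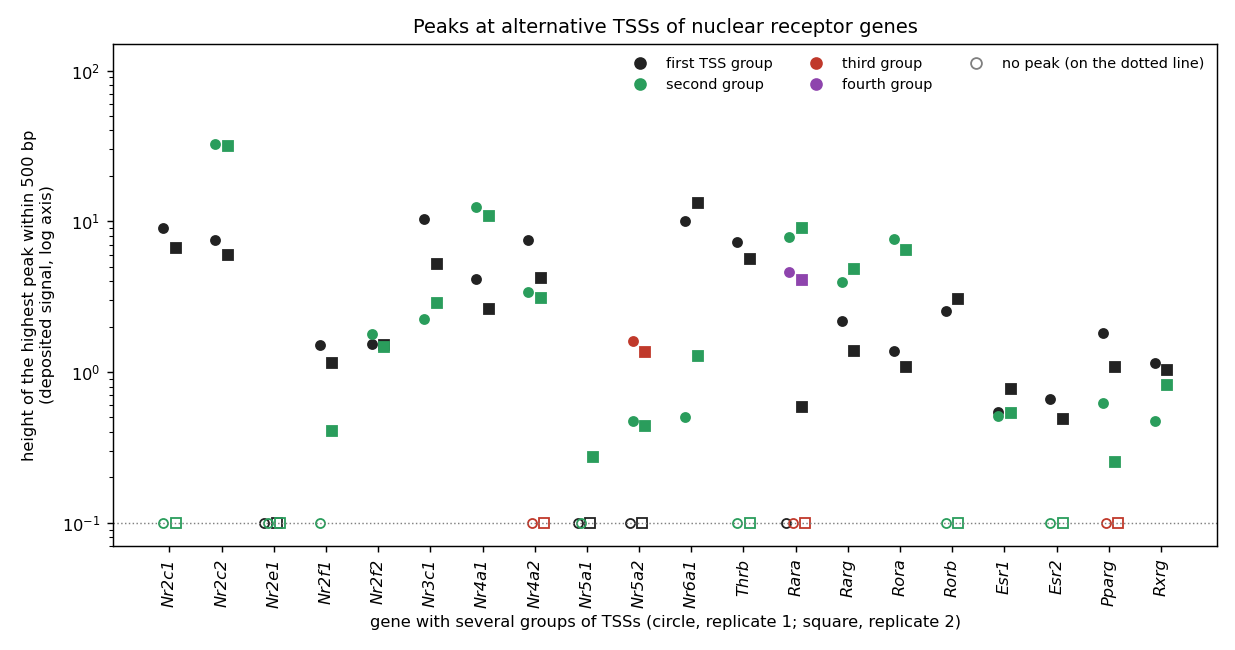
Height of the highest peak within 500 bp of each group of start sites (deposited signal, log axis) at the 20 members with several groups; circles are replicate 1, squares replicate 2, colours give the order of the groups along the gene, and open symbols mark no peak. Nr2c2, Nr4a1, Nr5a2, Rara, Rarg and Rora were higher at a later group than at the first in both libraries.

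Neighbouring start sites within 1 kb of each other were treated as 1 group, and 20 members had more than 1 group. Of their 45 groups, 31 had a peak in both libraries, 3 in 1 library and 11 in neither. A later group had a higher peak than the first in both libraries at 6 of the 18 such members with a promoter peak in both, Nr2c2, Nr4a1, Nr5a2, Rara, Rarg and Rora. Over all protein-coding genes with several groups and a promoter peak in both libraries this was so for 29.1%. At Rara, whose start sites spread over 4 groups, the first had no peak in replicate 1 and 0.586 in replicate 2. Its main peak stood 9.88 kb further, at Rara-201 and Rara-204, which encode 462 amino acids, and another of 4.61 and 4.04 stood at Rara-202 (459 amino acids), 32.6 kb further. Rarg had 3.94 and 4.81 at Rarg-202 (447 amino acids), against 2.16 and 1.37 at Rarg-201 (458 amino acids), 11.02 kb upstream. With the first start site alone, 26 members were open in both libraries, beside 62.8% of all genes, and the members that dropped out were Rara and Nr5a2.

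Beyond promoters, accessible sites were counted over each locus, the gene body with 10 kb on each side. The loci held 375 peaks in replicate 1 and 535 in replicate 2, with 1 peak lying in the loci of both Nr5a1 and Nr6a1. In replicate 1, 343 of these peaks overlapped a peak of replicate 2 by at least 1 bp, which is 91.5% (Clopper-Pearson 95% interval 88.2 to 94.1, counting error only), and 87.6% of all its peaks did. In replicate 2, 345 peaks (64.5%, interval 60.3 to 68.5) had a partner in replicate 1, against 62.2% of all. Peaks found in 1 library only were low, with median heights of 0.380 in replicate 1 and 0.435 in replicate 2, where shared peaks had 1.29 and 1.47. Heights of the 343 overlapping pairs had a Spearman's rho of 0.940 across peaks, which share their libraries and are not independent. Their log2 ratio of replicate 2 to replicate 1 had a median of 0.13 and an SD of 0.49, and 94.5% were within 2-fold. A locus peak was present in both libraries at 32 of 33 members, beside 82.9% of all genes, and Nr2e1 was the exception.

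**Figure D3:**
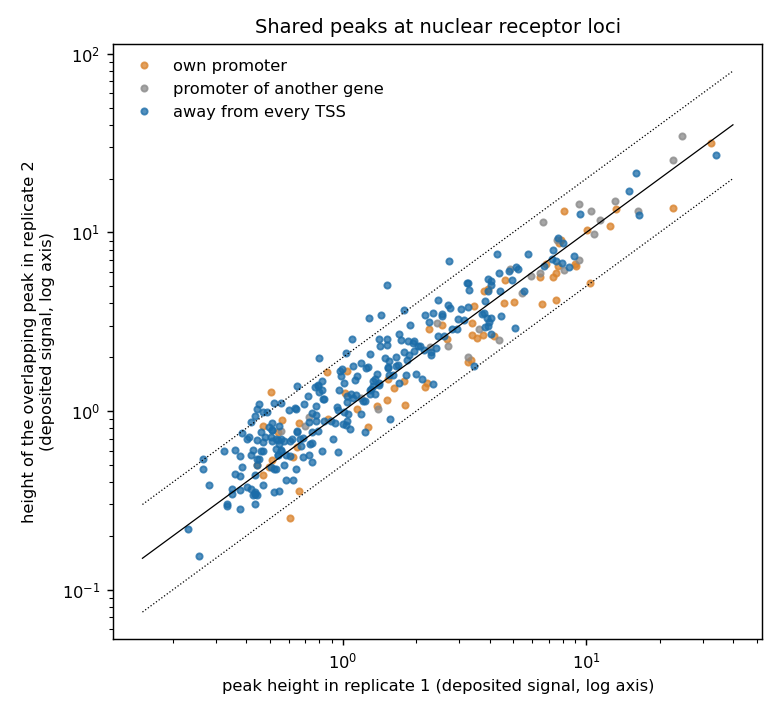
Height in replicate 1 against height of the overlapping peak in replicate 2 (deposited signal, log axes) for the shared peaks over the nuclear receptor loci; the solid line marks equal heights, the dotted lines 2-fold differences, and colours the place of the peak. Most points, 94.5% of 343 pairs, lie between the dotted lines.

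Introns held most of the locus peaks, with 193 of 375 in replicate 1 and 293 of 535 in replicate 2. These were low, with median heights of 0.795 and 0.681, against 2.67 and 1.47 for peaks at the members' own promoters (63 and 75 peaks). Promoters of neighbouring genes within the loci gave 32 peaks in each library, with median heights of 4.62 and 3.85. Of the 343 shared pairs, 47 reached a height of 5 in both libraries. These lay at 20 members, 16 of them at the member's own promoter and 14 at the promoter of another gene. The other 17 lay more than 500 bp from every TSS of the basic annotation. Among these 17, the Nr2f6 peak of 5.74 and 7.52 overlaps a start site of Nr2f6 in the comprehensive annotation.

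Peak density separated the members in another order than promoter height. The median over members was 0.131 peaks per kb, against 0.102 for all protein-coding genes, while footprints per kb had medians of 0.267 against 0.270. The members were longer genes, with a median of 41.2 kb against 17.4 kb, and part of a locus can belong to a neighbour. Nr2f6 had 0.647 peaks per kb (16 and 20 peaks), Rara 0.574 (29 and 48), Nr2f2 0.546 (14 and 24), Thra 0.476 (19 and 27) and Rarg 0.388 (12 and 21). These were the densest of the 33, at percentiles 99.8, 99.6, 99.4, 98.7 and 96.7 of all protein-coding genes. They include 2 of the 3 RAR genes, the third of which, Rarb, had 0.071 per kb over its locus of 408.3 kb.

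**Figure D4:**
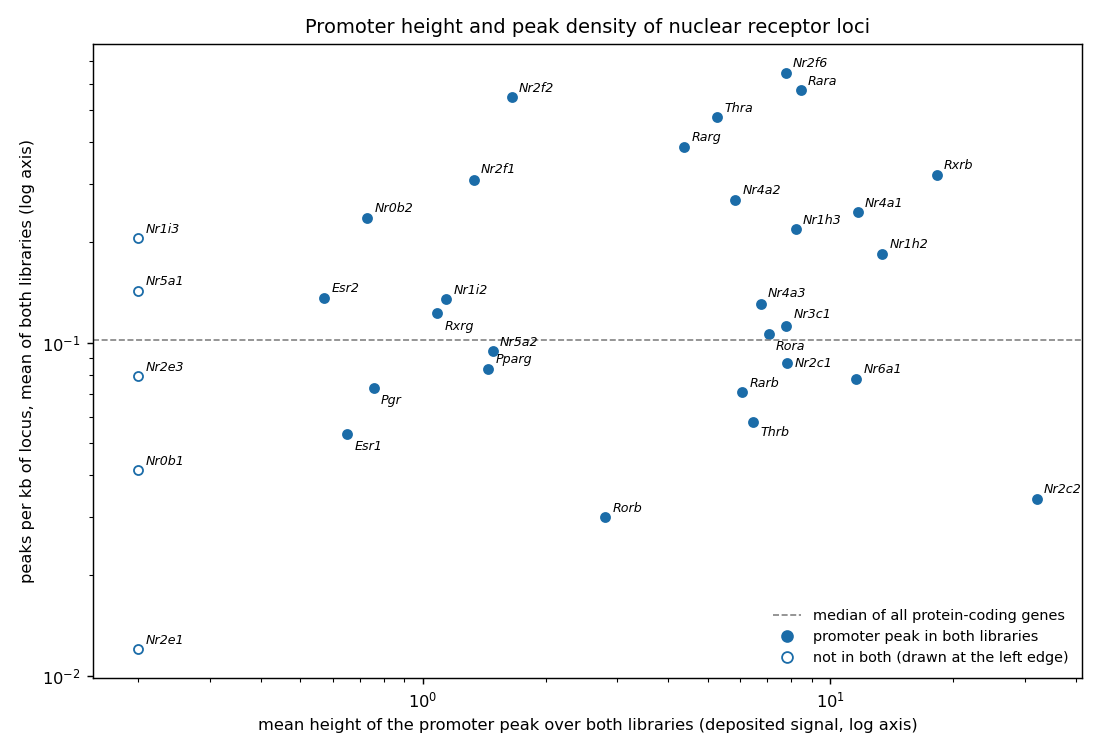
Peaks per kb of locus (mean of both libraries, log axis) against the mean promoter height over both libraries (deposited signal, log axis) for the 33 genes; filled points had a promoter peak in both libraries, open points at the left edge did not, and the dashed line is the median of all protein-coding genes, 0.102 peaks per kb. Nr2c2, with the highest promoter, has 0.034 peaks per kb, and Nr2f2, with a promoter mean under 2, has 0.546.

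Nr2c2 and Nr2f2 were opposite cases. Nr2c2 had 3 and 4 peaks in 102.9 kb (0.034 per kb, percentile 22.0), although its promoter was the highest. Nr2f2, on chromosome 7 (70351944 to 70366735, minus strand), had a promoter at percentile 16.7 of open genes and a locus density at percentile 99.4. Its 14 peaks in replicate 1 all recurred in replicate 2, and the highest, with heights of 16.4 and 12.6, lay in an intron 1128 bp from the nearest start site of the gene (chromosome 7, 70361721 to 70361940). Nr2f1 had 4 peaks in replicate 1 and 15 in replicate 2, the largest relative difference between libraries among members with peaks in both.

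Nr2e1, Rorb, Nr0b1 and Nr2e3 had sparse loci. Nr2e1 had no peak in replicate 1 and 1 in replicate 2, of height 0.507, in an exon. Rorb had 3 and 9 peaks in 200.6 kb (0.030 per kb), and Nr0b1 had 1 and 1, with heights of 0.256 and 0.154. Nr2e3 had 2 and 4 peaks, of which the highest (4.07 and 5.09) holds the sequence printed above. This peak lay 2151 bp from the nearest TSS of the basic annotation, that of Gm15507. In the comprehensive annotation the nearest was a start site of Nr2e3 itself, at 1035 bp. Nr5a1, despite its missing promoter peak in replicate 1, had 5 and 7 peaks (0.143 per kb, percentile 64.3), the highest of 1.44 and 3.43 lying downstream of the gene.

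**Figure D5:**
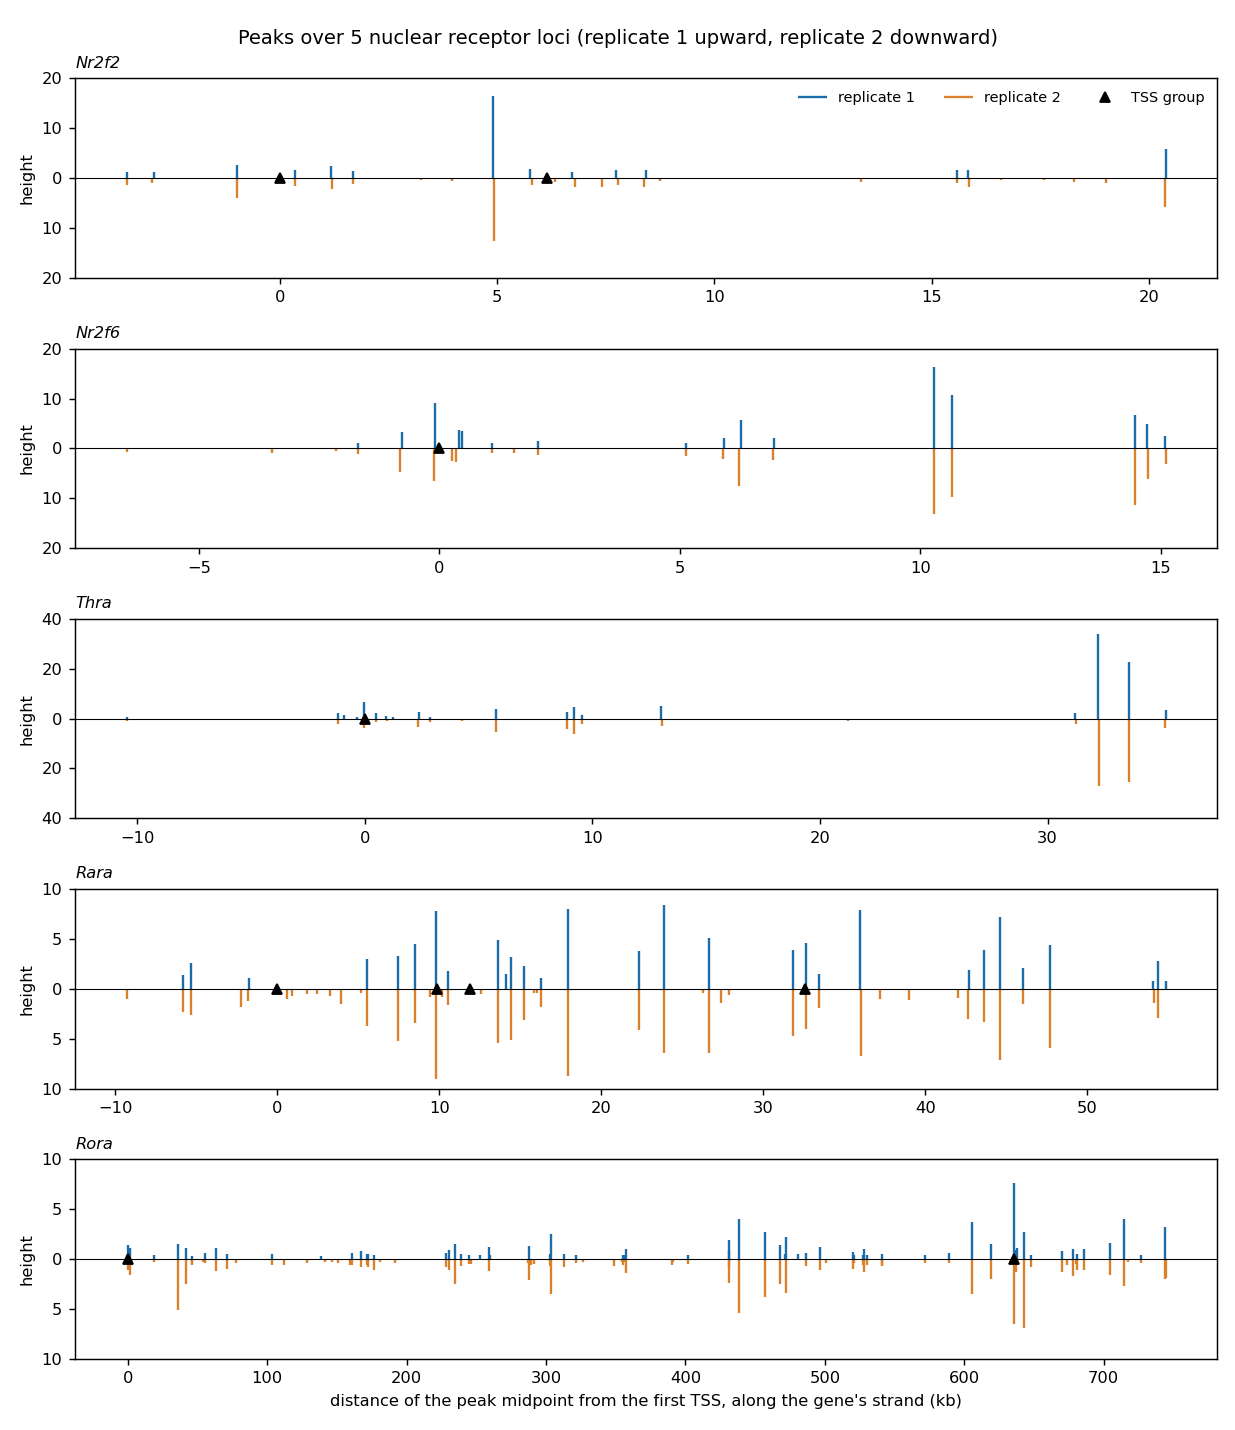
Peaks over 5 nuclear receptor loci by distance of the midpoint from the first start site (kb, along the gene's strand), with the deposited height upward for replicate 1 and downward for replicate 2; triangles mark groups of start sites. The panels show the single tall intron peak of Nr2f2, the tall peaks of Nr2f6 and Thra near other genes' promoters, the row of similar peaks over Rara and the many low peaks over Rora.

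The tallest peaks away from every basic TSS lay inside the gene model at some members and outside it at others. At Thra the highest, of 34.0 and 27.1 (chromosome 11, 98773921 to 98774100), lay downstream of Thra and 1233 bp from the start of Nr1d1, a clock receptor gene encoded on the opposite strand whose own promoter peak was 22.6 and 25.5. At Nr3c1 a peak of 16.1 and 21.5 lay 927 bp from the nearest basic start site of the gene and 300 bp from one in the comprehensive annotation. At Rarg a peak of 14.99 and 17.02 lay in an intron (chromosome 15, 102247001 to 102247140), 501 bp from a start site and so just outside the promoter window. Nr4a1 had one of 9.45 and 12.7 upstream (chromosome 15, 101246401 to 101246660), 7.61 kb before its first start site. The Rara peak printed above had 8.03 and 8.70, Nr4a3 had 8.91 and 7.41 at 1.63 kb upstream (chromosome 4, 48043301 to 48043520), and Nr1i3 had 7.32 and 7.97 downstream of the gene (chromosome 1, 171220941 to 171221100), 1.08 kb from the start of Tomm40l. With the Nr2f2 peak given above, these are the 8 highest when 1 peak is taken per member, ranked by the sum of the heights in each pair. Nr3c1 had a further intron peak of 7.67 and 9.32.

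Rara (chromosome 11, 98927818 to 98974942, plus strand) held a row of peaks along its body. Of 29 peaks in replicate 1, 27 recurred in replicate 2, and 18 and 32 of the peaks in replicates 1 and 2 were intronic. The highest in each library were 8.44 and 9.06, so that no single peak stood out, and 6 shared peaks reached 5 in both libraries, more than at any other member. Its locus had 84 and 184 footprints. At Thra, 9 and 16 peaks were intronic and 2 shared peaks reached 5 in both, both of them near Nr1d1. At Nr2f6 that number was 5, of which 3 lay at promoters of its neighbours Use1 and Ocel1.

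The longest genes had many low peaks. Rora, at 734.5 kb the longest member, had 68 and 92 locus peaks (0.106 per kb, percentile 51.7), of which 63 and 84 were intronic, with median heights of 0.650 and 0.636. Of the intronic peaks 58 of each library were shared. Rarb, Thrb and Esr1, each of at least 377.8 kb, had 10, 14 and 13 intronic peaks in replicate 1 and 18, 22 and 21 in replicate 2, with 10 shared at each gene. At Rarb another 10 and 16 peaks lay in the part of the gene model before the first basic start site. The densities of the 3 loci, between 0.053 and 0.071 peaks per kb, were below the median of all genes.

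Footprints over the loci numbered 789 in replicate 1 and 1711 in replicate 2, and 77.6% and 90.3% of the locus peaks held at least 1. Counted whether or not they lay in a peak, these were 2.10 and 3.20 footprints per locus peak. Over each whole library the same ratio was 1.89 and 2.79. Footprint density was highest at Nr2f6, with 43 and 79 footprints (2.19 per kb), then at Rara (2.00 per kb) and Nr2f2 (1.87 per kb, 33 and 97 footprints). The footprint number more than doubled between libraries at Nr2f2, as it did over the whole genome, where replicate 2 had 2.08 times as many.

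The core motif of the receptors was about as frequent in the members' locus peaks as in all peaks, somewhat above in replicate 1 and below in replicate 2. Matches were sought on both strands in the 150 bp at each peak's midpoint. AGGTCA was present in 14.7% and 13.5% of the members' locus peaks, against 12.7% and 13.9% of all peaks. The NR4A site AAAGGTCA, which contains the core motif, was in 2.13% and 2.06% against 1.45% and 1.62%. TCAAGGTCA, an extended form bound by monomers, was in 0.800% and 0.935% against 0.363% and 0.463%, which is 3 and 5 peaks. No locus peak held AGGTCA repeated in the same direction after 1 or 4 bases, or in the opposite direction after 3 bases, which at most 0.0943% of all peaks held. NGTTCA followed after 5 bases by AGTTCA, the letters of the Rarb element, was in 0.0152% and 0.0153% of all peaks, and the match at Rarb lies outside the central 150 bp of its peak. The glucocorticoid receptor motif, GNACA followed after 3 bases by TGTNC, was in 1 locus peak of each library, at Rora, which is 0.267% and 0.187% against 0.378% and 0.389% of all peaks. CAAAGTCCA, a motif of the HNF4 receptors, was in 0.533% and 0.748% against 0.796% and 0.823%.

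Among motifs of other factors the GC box GGGCGG differed most in percentage points, present in 25.6% and 21.5% of the members' locus peaks against 16.9% and 13.97% of all peaks. It is common in CpG-rich promoters, and the part of CpG content in this difference was not tested. The E-box CACGTG was in 4.80% and 3.93% against 4.41% and 4.31%, and the AP-1 motif TGACTCA in 2.13% and 3.18% against 3.56% and 3.79%. CCGGAAGT was in 1.07% and 0.935% against 1.09% and 0.885%, and TGACGTCA in 0.800% and 0.374% against 0.616% and 0.561%. The consensus motifs of HNF1, NRF1 and CTCF had no match in the members' peaks. In all peaks NRF1 was in 0.306% and 0.216%, HNF1 in 0.0566% and 0.0554%, and CTCF in 0.0112% and 0.00847%. At shares this low, the absence of a match among 375 and 535 peaks says little.

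A motif was counted as inside a footprint where footprints of both libraries covered at least 50% of its bases, over the whole length of the shared peaks. For the core motif this was so for 6 of 55 matches (10.9%), against 11.3% of the matches in all shared peaks, 1 each at Nr0b2, Nr1i3, Nr2e3, Nr2f6, Nr3c1 and Rara. The match at Rara extends to AAAGGTCA on the minus strand, and footprints of both libraries covered all of its 8 bases. All 3 matches of TGACGTCA were inside footprints, against 66.2% over all shared peaks, at Nr4a2, Nr6a1 and, in the Rora locus, at the promoter of Ice2. None of 10 matches of TGACTCA was, against 5.72%. GGGCGG was inside footprints in 70 of 191 matches (36.6%) over 22 members, against 37.8%. CCGGAAGT was in 4 of 9, against 37.5%, and 3 of these lie at the Nr1h2 start site. CACGTG was in 3 of 19 (15.8%), against 26.6%. The shares of AGGTCA and GGGCGG, the motifs with the most matches at the members, were near those of all shared peaks. The letters sought for the direct repeat with 5 bases between are those of the Rarb element, so a match at Rarb was given in advance. Of 17 such matches over all shared peaks, only that at Rarb lay in footprints of both libraries, which is a description and does not set Rarb apart. A match is a run of letters, and whether a receptor or another protein was bound there is not measured here.

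Other genes of the pathway were mostly open as well. Of 16 other nuclear receptor genes 15 had a promoter peak in both libraries, with Nr1h5 the exception. Their highest were Esrra (26.5 and 35.6), which controls mitochondrial genes, Ppard (24.3 and 27.0), a fatty acid sensor, and Nr1d1. All 14 coregulator genes were open. Their highest were the coactivator Ncoa2 (21.9 and 32.1), the acetyltransferase Ep300 (17.0 and 13.8) and the deacetylase Hdac3 (13.0 and 15.9). Of 23 genes that supply or remove ligands, 16 were open. Srd5a1, a steroid reductase, was highest (17.1 and 24.5), and Rdh10, which makes retinal, had 4.92 and 3.30. Stra6, Crabp1, Cyp26c1 and Cyp19a1, among them a retinol transporter and the aromatase, were among the 7 without a promoter peak in both libraries. Of 18 known receptor targets, 15 were open. The glucocorticoid targets Per1 (19.8 and 23.6) and Fkbp5 (21.2 and 18.7) and the liver X receptor target Mylip (21.8 and 21.3) were highest. Cyp3a11 and Cyp2b10, the liver targets of the xenobiotic receptors, and the fat droplet gene Cidec had no promoter peak in either library. The lists are to be read beside the 65.3% of all genes with a promoter peak in both libraries.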

How the data were processed

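DNase-seq peak lists and footprint lists of both kidney libraries were used, as deposited by the authors on mm10 per the labels. Peaks were called on each library alone, per the file headers and descriptions; the aligner and callers are not given in the sources used. The signal deposited by the authors is peak height, taken from the longer peak list, with the stricter list as an alternative. The footprint lists deposited by the authors carry a q-value of 0.01 in every row, read as a threshold. Per-base false discovery rates were not used. All heights below 1 (100%) were whole multiples of a step, to a tolerance of 0.05 steps. The labels give both libraries 1 donor code but different biosamples, read as separate animals. The mice carry CAST/EiJ alleles, and reads lost to strain variants would lower peaks.

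Genes are GENCODE M21 basic, and the first start site is the most upstream. Counting used Python 3.11.15, numpy 2.4.6 and scipy 1.17.1 and was tested on simulated data. The members, lists and motifs were chosen with earlier results of these data known. All members are named, with of each pathway list the 3 highest and up to 4 not open, except that 1 such gene is not reported here; marker lists are given as counts. Alternatives covered the peak list, promoter window, flanks, annotation, heights, overlap and leaving out a replicate.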

Additional observations from a re-analysis of the deposited data

How the results depend on the processing

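Counts of members with a promoter peak in both libraries stayed between 24 and 30 under every alternative tried (28 as reported), with 24 when only the upper 50% of peaks by height were used. Of all genes, 62.0% had such a promoter peak with the stricter list, 62.8% with the first start site alone, 66.2% in replicate 1 alone and 68.0% in replicate 2 alone. The other promoter settings, and every alternative below, were run on the members only. Whether the members differ from all genes under those settings was not tested. Members with a footprint in a promoter peak stayed between 25 and 29. The median of locus peaks per kb, 0.131, was 0.0816 with the stricter list, 0.0578 with the upper 50% of peaks and 0.0816 without peaks near a TSS. Locus peaks, 455 as the mean of both libraries, were 730 with 50 kb flanks and 262.5 with the upper 50% of peaks. Locus footprints, 1250 on average, were 1988 with 50 kb flanks, and ranged from 789 to 1711 when 1 replicate was left out. The share of replicate 1 peaks found again in replicate 2, 91.5%, was 83.5% with 50% reciprocal overlap, 94.9% with the stricter list and 97.7% with the upper 50% of peaks. Wider flanks hold more sequence, and the stricter list, the upper 50% and leaving out peaks near a TSS hold fewer peaks, by construction; for the other settings the cause was not tested. Promoter heights moved by more than the replicate SD at 5 of 26 members when only the first start site was used and at 0 of 27 with the stricter list. No paired analysis was possible because the libraries form 1 group. Depth is unknown, so a low peak that replicate 1 lacks may have been undetectable at its depth.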
